A study of Junonia coenia with 20 samples.

Results

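Rosa and Linea, colour morphs of the buckeye butterfly Junonia coenia, were compared by RNA sequencing of the hind wing while it lays down its ommochrome pigments. The comparison used 8 of the 16 libraries that have values, out of 20 samples in the labels. They were 4 Rosa libraries (early replicates 1 and 3, late replicates 1 and 2) and 4 Linea libraries (early replicates 1 and 2, late replicates 1 and 2), chosen by their labels alone. Early is the yellow ommochrome stage and late the orange to red one. All groups came from the same North Carolina population, reared on artificial diet either at 21°C with 8 h of light or at 27°C with 16 h of light. The labels do not say which morph came from which regime, so a morph difference cannot be told apart from one of temperature and day length. They also do not say whether a library is 1 animal or a pool, so the p-values below speak for the variation among these particular libraries, part or all of which may be technical.

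Ommochromes are made from tryptophan by way of kynurenine and 3-hydroxykynurenine, inside the scale cells of nymphalid wings, where they give yellow, red and brown. In insects, tryptophan dioxygenase and kynurenine 3-monooxygenase catalyse early steps, and ABC transporters carry precursors into the pigment granules. Buckeyes are seasonally polyphenic: the Rosa form is dark red and typical of autumn, and the Linea form is tan and typical of summer. Transcripts carry identifiers of a transcriptome assembly that are not paired with gene names in the file, so no pigment, patterning or cell marker gene could be looked up, and the labelled tissue could not be checked against its markers. The transcripts below are therefore described by their identifier and their pattern alone.

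Values are RPKM, reads set relative to transcript length and library size, as made by the authors. They were divided by a scaling factor for each library, because median RPKM ranged from 4.01 to 9.1 over the 8 libraries. "Scaled RPKM" means the deposited value after this step, and a log2 difference is Rosa minus Linea on log2(scaled RPKM + 1), a scale that understates differences of low transcripts. Sequencing depth is unknown. In whole wings, fewer cells of a type and less RNA per cell cannot be told apart.

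The libraries did not sort by morph as a whole. The Spearman correlation over 14778 transcripts had a median of 0.78 over the 4 pairs of replicates and of 0.762 over the 8 pairs from the same stage but the other morph. Linea late replicate 2 correlated at 0.816 with Rosa early replicate 3 and at 0.739 with its own replicate. Principal component 1 (23.9% of the variance) placed Rosa early replicate 3, Rosa late replicate 2 and Linea late replicate 2 between 39 and 84.6. The other 5 libraries lay between -52.1 and 8.2 on it. Principal component 2 (18.8%) placed the 4 Rosa libraries between 18.1 and 47.4, above the 4 Linea libraries. Linea late replicate 1 was at -101.3 on that axis, and the remaining 3 Linea libraries lay between -32.5 and 10.9.

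**Figure D1:**
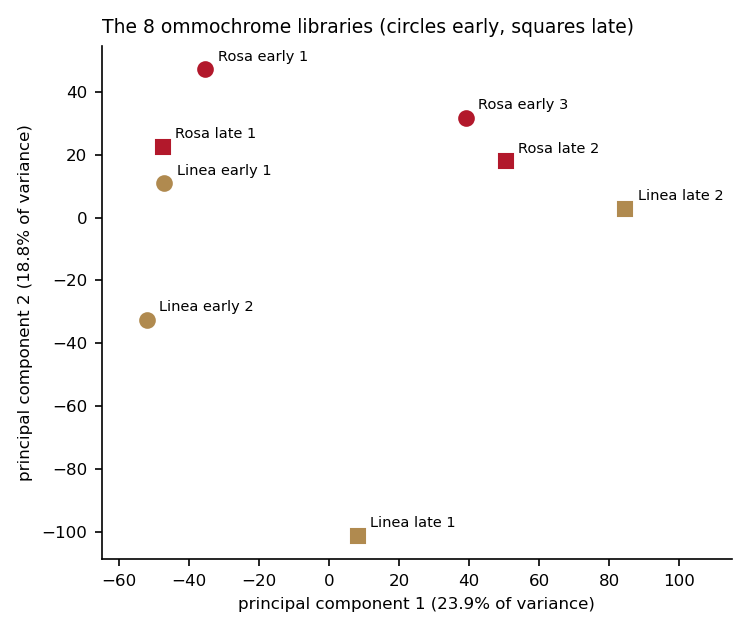
Scores of the 8 ommochrome libraries on principal components 1 and 2 of log2(scaled RPKM + 1), with the share of variance on each axis; Rosa is red, Linea tan, circles are early and squares late. Component 1 sets Rosa early 3, Rosa late 2 and Linea late 2 apart from the rest, and Linea late 1 stands alone at -101.3 on component 2.

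The spread between replicates was close to the spread between morphs. Between the replicates of a group, the median absolute log2 difference of a transcript ranged from 0.51 in Linea early wings to 0.75 in Linea late wings. Between a Rosa and a Linea library of the same stage it ranged from 0.54 to 0.78. At least 4-fold differences affected 6.75% to 11.9% of transcripts between replicates and 8.19% to 12.1% between single libraries of the morphs. The share of a library's RPKM in its 10 most abundant transcripts was 22% ± 5.13 (SD, n = 4) for Rosa and 26.3% ± 6.3 (SD, n = 4) for Linea (two-sided exact permutation test, p = 0.257; the smallest p this design allows is 0.0286). Within early wings the means were 23.9% in Rosa and 27% in Linea, and within late wings 20.1% in Rosa and 25.6% in Linea. Rosa libraries held 13194 ± 568 (SD, n = 4) transcripts at 1 RPKM or more, and Linea libraries 12748 ± 483 (SD, n = 4; two-sided exact permutation test, p = 0.286). The means of this count were 13281 in Rosa and 12990 in Linea early wings, and 13108 in Rosa and 12506 in Linea late wings. Without Linea late replicate 2 the difference of 446 in this count became 207. Counted at 1 scaled RPKM, the difference of Rosa minus Linea turned to -99.8 (two-sided exact permutation test, p = 0.914).

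The central comparison asks which transcripts differ between the morphs across both ommochrome stages. With stage as a term and the 8 libraries in the fit, 0 of 14778 transcripts tested passed an adjusted p of 0.05 by limma (0% called; the lowest adjusted p was 0.104). An unadjusted p under 0.05 was found for 954 transcripts (6.46%), of which 447 were higher (3.02%) and 507 lower (3.43%) in Rosa. That split rests on the scaling: on unscaled RPKM, for which the median over all transcripts was 0.37, it was 1091 higher and 186 lower. With all 16 libraries in the fit, whose larval and pre-pigment replicates add to the estimate of spread (8 residual degrees of freedom against 5), 6 of 15682 transcripts passed (0.0383%), all lower in Rosa. Their adjusted p ranged from 0.0026 to 0.0446, and in each of them the 4 Rosa libraries lay below the 4 Linea libraries. A transcript near 0 at the earlier stages gains little spread from them on the log2(scaled RPKM + 1) scale. JC_0019147, among the 6, was at most 1.84 scaled RPKM there, and its SE was 0.34 with all 16 libraries against 0.39 with 8. The SE of JC_0051542, also among the 6, rose from 0.37 to 0.45.

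JC_0050014 had the lowest p of the central comparison. It was at 0.00691 and 1.04 scaled RPKM in Rosa early wings and at 3.27 and 0.315 in Rosa late wings, against 37.9 and 41.9 in Linea early wings and 33.9 and 33 in Linea late wings. The highest Rosa library was thus far under the lowest Linea library, and Linea varied little between stages. Rosa averaged 1.16 ± 1.47 scaled RPKM (SD, n = 4), and the average of the Linea libraries was 36.7 ± 4.06 (SD, n = 4). The log2 difference was -4.35 ± 0.48 (SE), with a limma adjusted p of 0.1 among the 8 libraries and 0.0026 with all 16. In early wings alone it also passed with all 16 libraries (limma adjusted p = 0.033), but in late wings alone it did not (limma adjusted p = 0.11). Without Rosa late replicate 1 it passed among the ommochrome libraries alone (limma adjusted p = 0.043). The transcript passed in 2 of 20 alternative settings of the central comparison, and its limma adjusted p reached 0.76 with the replicate block. Before pigment the morphs were closer. Larval discs held 70.2 and 86.3 scaled RPKM in Rosa and 92.1 and 82.8 in Linea, and pre-pigment wings 6.73 and 5 in Rosa and 17.9 and 13.3 in Linea. The transcript was thus abundant in discs of both morphs and lower in pre-pigment wings of both, and at the ommochrome stages its Linea level was above the Linea pre-pigment level while its Rosa level was below the Rosa one.

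JC_0051542 was listed at 0 in all 4 Rosa ommochrome libraries. In Linea it was at 10.1 and 3.74 scaled RPKM in early wings and at 9.48 and 10.6 in late wings. Pre-pigment wings held it in both morphs, at 4.31 and 10.1 in Rosa and at 23.2 and 7.77 in Linea. In larval discs it was again low in Rosa, at 0 and 0.488, against 13.8 and 7.27 in Linea. The limma adjusted p was 0.1 among the 8 libraries and 0.045 with all 16; no fold is given against a group listed at 0. In 3 transcripts the 4 Rosa libraries were listed at 0 and the 4 Linea libraries held at least 1 scaled RPKM, and in 0 transcripts was it the other way round. The other two, JC_0042585 and JC_0019147, were singled out after their values were seen. Linea held JC_0042585 at 5.39 and 2.66 scaled RPKM in early and 4.7 and 3.23 in late wings (limma adjusted p = 0.15, or 0.045 with all 16). At the earlier stages its order was the reverse. Pre-pigment wings held 1.61 and 4.71 in Rosa and 0 and 0.508 in Linea, and discs 0.807 and 1.18 in Rosa and 0 and 0.0477 in Linea. Linea held JC_0019147 at 4.48 and 3.92 in early and 8.82 and 2.38 in late wings (limma adjusted p = 0.28, or 0.045 with all 16). Pre-pigment wings held 0.456 and 0 of it in Rosa and 0.918 and 1.84 in Linea, and no larval library was above 0.178. In the Linea ommochrome libraries none of the 3 was above 10.6 scaled RPKM.

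Only JC_0050344 was on in every library of a morph, at 5 scaled RPKM or more, and off in every library of the other, below 1 (1 of 14778, 0.00677%); it too was singled out after its values were seen. In Rosa it was below 0.001 scaled RPKM in both early libraries and at 0 and 0.367 in late ones. In Linea it was at 6.37 and 27.1 in early and at 12.8 and 39.2 in late wings. No library of an earlier stage reached the lowest of these Linea levels, and the highest of them was Rosa pre-pigment replicate 2 at 2.79. The log2 difference was -4.09 ± 0.53 (SE; limma adjusted p = 0.13 among the 8 libraries and 0.027 with all 16). The remaining call of the 16-library fit, JC_0049495, had another course. It was at 5.49 and 4.2 scaled RPKM in Rosa early and 0.776 and 9.65 in Rosa late wings, against 103 and 167 in Linea early and 81.7 and 111 in Linea late wings. The morphs overlapped in pre-pigment wings, at 38.8 and 69.2 in Rosa and 30.8 and 82.7 in Linea, and no larval library was above 3.3. Its log2 difference was -4.48 ± 0.53 (SE; limma adjusted p = 0.1 among the 8 libraries and 0.027 with all 16).

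Among transcripts higher in Rosa, JC_0092108 and JC_0110399 came first by p, and neither passed. JC_0092108 was at 58.3 and 59.6 scaled RPKM in Rosa early and 27.5 and 19.1 in Rosa late wings, against 5.84 and 10.8 in Linea early and 6.48 and 5.85 in Linea late wings. The morphs did not overlap at either stage. The log2 difference was 2.24 ± 0.35 (SE; limma adjusted p = 0.28), and 0.84 was the adjusted p with all 16 libraries. Rosa larva replicate 2 held 70.9 scaled RPKM of it and Rosa larva replicate 3 held 0.0747, a gap between replicates that enters the 16-library estimate of spread. JC_0110399 was steadier, at 55.6 and 52.5 in Rosa early and 49.7 and 44.1 in Rosa late wings, against 10.7 and 12 in Linea early and 8.6 and 18.7 in Linea late wings. Its log2 difference was 1.98 ± 0.32 (SE; limma adjusted p = 0.28, or 0.11 with all 16). In pre-pigment wings the order was the reverse, at 25.3 and 22.1 in Rosa and 42.1 and 44.6 in Linea, and larval discs of both morphs were below 1. Its Rosa level at the ommochrome stages was thus above the Rosa pre-pigment level, and its Linea level below the Linea one.

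**Figure D2:**
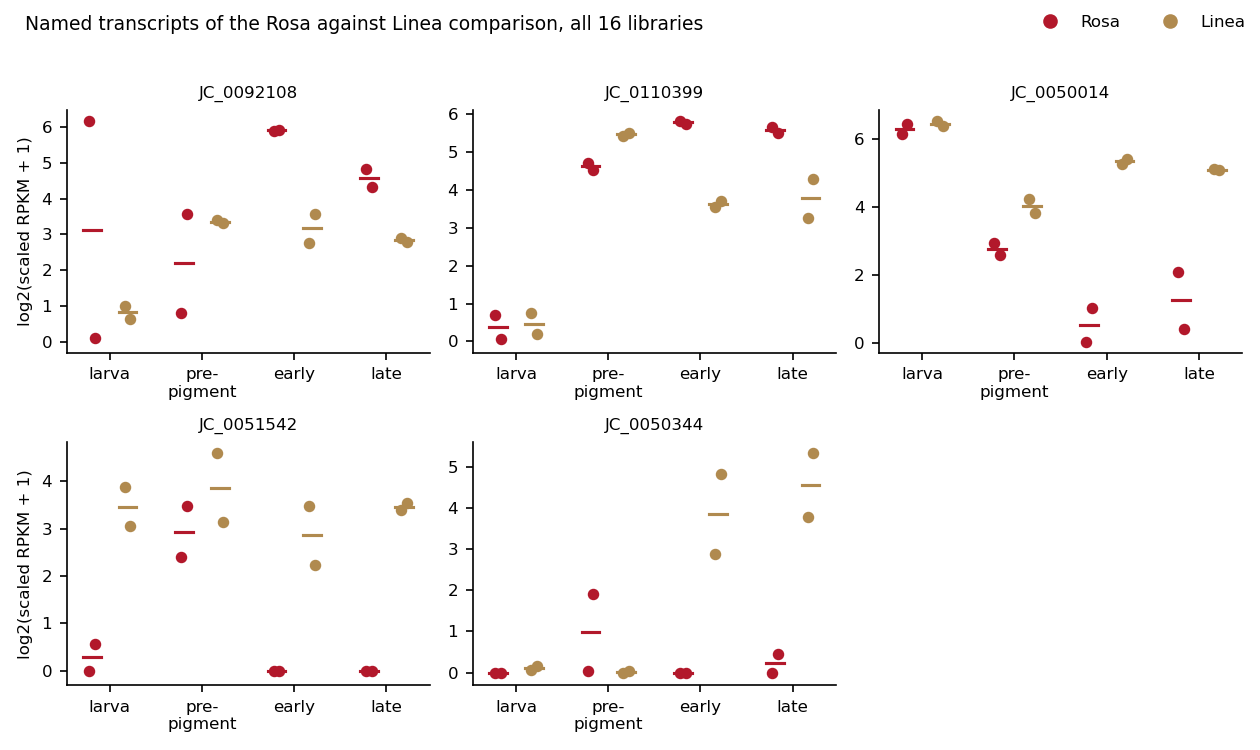
Level of 5 transcripts in all 16 libraries, as log2(scaled RPKM + 1), by stage; points are libraries, lines are means of 2, Rosa is red and left of Linea in tan. JC_0092108 and JC_0110399 are higher in Rosa at both ommochrome stages, the other three are lower there, and JC_0050344 is near 0 except in Linea ommochrome wings and in Rosa pre-pigment replicate 2.

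Across all transcripts, on the scaled values, the middle 50% of morph differences lay between -0.344 and 0.338 on the log2 scale, and percentiles 1 and 99 were at -1.89 and 1.78. At least 2-fold differences occurred in 819 transcripts higher (5.54%) and 847 lower (5.73%) in Rosa, at least 4-fold ones in 96 higher (0.65%) and 124 lower (0.839%), and at least 8-fold ones in 10 higher (0.0677%) and 17 lower (0.115%). The 4 Rosa and 4 Linea libraries did not overlap in 526 transcripts (3.56%), 252 of them higher (1.71%) and 274 lower in Rosa (1.85%). Arbitrary labels of 4 libraries against 4 also leave transcripts without overlap. Without ties their expected share is 0.0286, the smallest p of the exact permutation test above. With RPKM as deposited, these counts were 709 higher (4.8%) and 72 lower (0.487%). Without overlap, 132 transcripts were at least 2-fold higher (0.893%) and 158 at least 2-fold lower (1.07%) in Rosa. At 4-fold these were 23 higher (0.156%) and 31 lower (0.21%), and at 8-fold 5 higher (0.0338%) and 10 lower (0.0677%). The near-even split rests on the scaling, which centres the differences. With RPKM as deposited, a count added after seeing the data, at least 2-fold differences were found in 1819 transcripts higher and 409 lower in Rosa, 4-fold ones in 209 higher and 65 lower, and 8-fold ones in 25 higher and 10 lower. Without overlap, the deposited values gave 69 transcripts at least 4-fold higher and 10 at least 4-fold lower. Of the 20 transcripts with the lowest p, 13 were lower and 7 higher in Rosa.

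The transcripts without overlap were also sorted by larval against pre-pigment level, which the comparison did not use, and by mean level over the 8 ommochrome libraries, which it did. Over all transcripts tested the shares without overlap were 1.71% higher and 1.85% lower in Rosa. Among 965 transcripts at least 4-fold higher in larval discs than in pre-pigment wings, 21 were higher (2.18%) and 7 lower (0.725%) in Rosa ommochrome wings. Among 1530 at least 4-fold higher in pre-pigment wings, 19 were higher (1.24%) and 20 lower (1.31%). By mean level, transcripts under 5 scaled RPKM gave 75 higher (1.47%) and 126 lower (2.46%), and those above 50 gave 29 higher (1.82%) and 18 lower (1.13%). With RPKM as deposited every one of these classes held more transcripts higher than lower in Rosa, so the excess of lower transcripts in a class rests on the scaling. On the deposited values the share higher in Rosa was 6.84% for larva-high and 3.79% for pre-pigment-high transcripts, and 3.11% under 5 and 6.95% above 50 scaled RPKM, against 4.8% of all transcripts tested. Larva-high stayed above pre-pigment-high transcripts, and those above 50 stayed above those under 5, while the order across these pairs differed between the scales. No test was run on these classes.

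**Figure D3:**
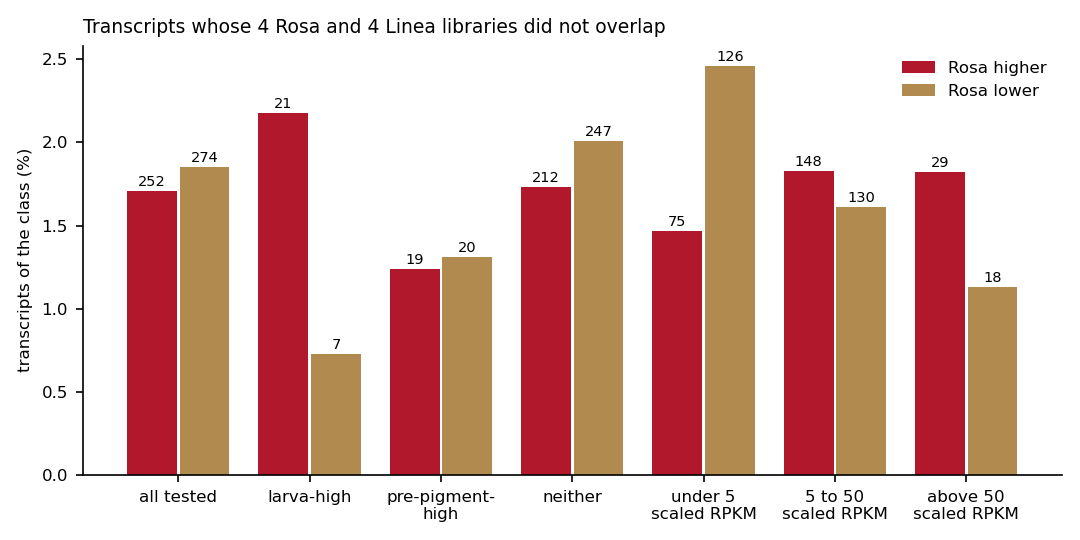
Share of transcripts (%) whose 4 Rosa and 4 Linea ommochrome libraries did not overlap, among all 14778 tested and by class, with the number above each bar; red bars are higher and tan bars lower in Rosa. Larva-high transcripts were more often higher (21 against 7), and transcripts under 5 scaled RPKM more often lower (126 against 75); with RPKM as deposited every class held more higher than lower ones.

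The morph differences measured at the early and late stages were not correlated in general. Each rests on 2 libraries against 2, and replicates were about as far apart as the morphs. A low correlation therefore cannot show whether the differences themselves carried over. Across the 14778 transcripts, the early and late log2 differences, which share no library, gave a Pearson r of -0.01 and a Spearman rho of 0.05; the points share libraries within a stage and are not independent. Of 410 transcripts at least 4-fold lower in Rosa early wings (2.77% of those tested), 187 (45.6%) were also lower in Rosa late wings, against 46.2% of all transcripts. Of 246 at least 4-fold higher in Rosa early wings (1.66%), 140 (56.9%) were higher in Rosa late wings, against 53.7% of all. Late 2-fold differences were more frequent among these 410 in both directions: 79 (19.3%) were lower and 116 (28.3%) higher in Rosa, against 7.73% lower and 11.1% higher among all transcripts. The libraries of the morphs did not overlap in 5823 transcripts in early wings (39.4%) and in 4387 in late wings (29.7%), where only 2 libraries stand against 2. With so few libraries arbitrary labels also leave many transcripts without overlap, so these shares alone do not show a morph difference.

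**Figure D4:**
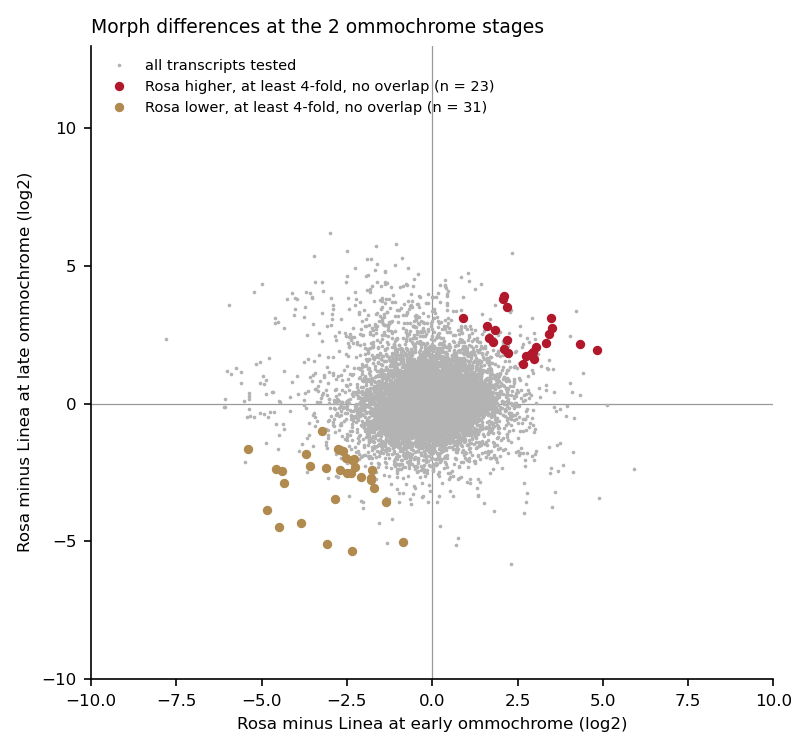
Rosa minus Linea log2 difference of each transcript at early (x) and late (y) ommochrome; grey points are the 14778 transcripts tested, red and tan points those at least 4-fold higher (23) or lower (31) in Rosa over both stages with no overlap of libraries. The grey cloud has no slope (Pearson correlation -0.01); the coloured points lie in the corners because they were chosen for that.

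Early wings taken alone gave 0 calls by limma (0% called, lowest adjusted p = 0.168). By unadjusted p under 0.05 there were 949 transcripts (6.42%), 348 higher (2.35%) and 601 lower (4.07%) in Rosa. With RPKM as deposited that split was 1226 higher and 225 lower. JC_0050975 was at 284 and 126 scaled RPKM in Rosa early wings, against 2.15 and 2.18 in Linea early wings. In late wings it was lower in Rosa, at 26.3 and 5.31, against 86.4 and 53 in Linea. The log2 difference was 5.91 ± 0.75 (SE, limma adjusted p = 0.17) at early and -2.39 ± 0.75 at late. JC_0111226 was at 25.2 and 11 in Rosa early wings and at 0.151 and 0.00341 in Linea early wings (4.05 ± 0.55 SE, limma adjusted p = 0.17). By the late stage both morphs held it, at 22.2 and 22.2 in Rosa and 10.5 and 15.3 in Linea. JC_0097415 was listed at 0 in both Rosa early libraries, against 39.1 and 26.8 in Linea early wings (limma adjusted p = 0.17, or 0.027 with a pseudocount of 0.1). Rosa late wings held 17.8 and 11.7 of it, and Linea late wings 6.71 and 9.96. JC_0111276 was at 0 and 0.0632 in Rosa early wings, against 25.1 and 29.7 in Linea early wings (-4.78 ± 0.59 SE, limma adjusted p = 0.17). In late wings it stood at 15.1 and 41.8 in Rosa and at 6.02 and 8.91 in Linea. In late wings JC_0050975, JC_0097415 and JC_0111276 thus had the morphs in the other order, and JC_0111226 had a log2 difference of 0.75 ± 0.55 (SE).

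Late wings taken alone also gave 0 calls by limma (0% called, lowest adjusted p = 0.249). Unadjusted, 925 transcripts had a p under 0.05 (6.26%), 608 higher (4.11%) and 317 lower (2.15%) in Rosa, or 620 higher and 198 lower with RPKM as deposited. At least 4-fold differences were found in 488 transcripts higher (3.3%) and 220 lower (1.49%) in Rosa late wings. JC_0049476 was at 2.24 and 1.42 scaled RPKM in Rosa late wings, against 86.1 and 111 in Linea late wings (-5.14 ± 0.57 SE, limma adjusted p = 0.25, or 0.018 with all 16 libraries). No other library of either morph held more than 4.28. JC_0004023 was at 0.383 and 0.368 in Rosa late wings, against 48.3 and 43.9 in Linea late wings (-5.1 ± 0.63 SE, limma adjusted p = 0.25). It was lower in Rosa at early as well, at 6.08 and 1.12, against 29.7 and 34.6 in Linea. On the other side, JC_0102150 was at 16.7 and 11.1 in Rosa late wings and below 0.01 in both Linea late libraries (3.87 ± 0.48 SE, limma adjusted p = 0.25). In early wings the morphs overlapped, at 15.5 and 13.1 in Rosa and 14.2 and 14 in Linea. JC_0013820 was at 26.1 and 13.6 in Rosa late wings and listed at 0 in both Linea late libraries (limma adjusted p = 0.29). In early wings it was at 14 and 6.38 in Rosa and at 8.42 and 7.61 in Linea.

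**Figure D5:**
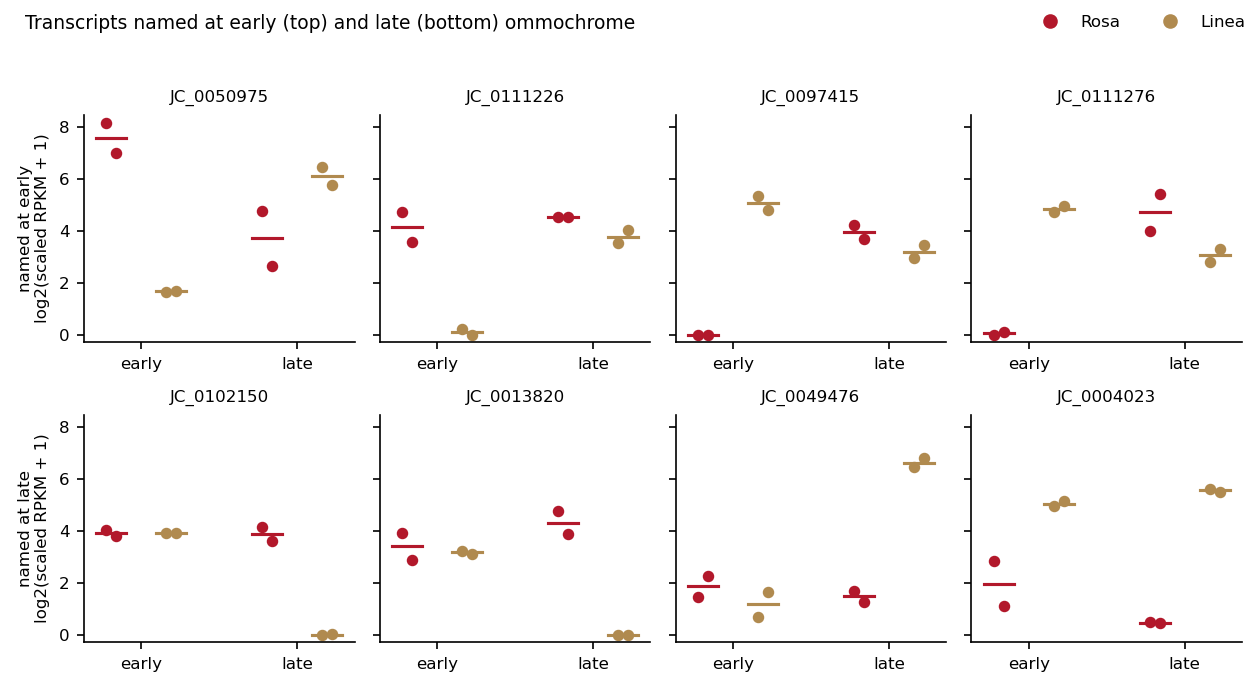
Level of the 8 transcripts named at early (top row) and late (bottom row) ommochrome, as log2(scaled RPKM + 1); points are libraries and lines means of 2, with Rosa in red left of Linea in tan. Each pair of morphs is apart at the stage that named the transcript, and only JC_0004023 is apart in the same direction by a log2 size over 2 at the other stage.

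Whether the morph difference itself changed between the stages was tested as an interaction. No transcript passed (limma, 0 of 14778, lowest adjusted p = 0.257). An unadjusted p under 0.05 was found for 892 (6.04%), 649 with a positive (4.39%) and 243 with a negative difference of late minus early (1.64%). This split too may rest on the scaling. The median morph difference was -0.0751 at early and 0.0566 at late on scaled values, but 0.519 and 0.191 with RPKM as deposited. Of the 4 transcripts named by this test, JC_0110920 had the lowest p. It was at 21.3 and 39.1 scaled RPKM in Rosa early wings and 1.97 and 1.01 in Linea early wings, and at 3.25 and 6.44 in Rosa late wings and 44.9 and 57.5 in Linea late wings. The morphs thus stood in opposite order at the stages, with a log2 difference of 3.61 ± 0.55 (SE) at early and -3.2 ± 0.55 at late (interaction -6.82 ± 0.77, limma adjusted p = 0.26). JC_0050975, JC_0097415 and JC_0111276, described above, were the others, each with a limma adjusted p of 0.26. For JC_0050975 the interaction was -8.3 ± 1.06 (SE), and for JC_0111276 it was 6.44 ± 0.83.

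The ommochrome difference was then set against that of the earlier stages, which share no library with it. The 23 transcripts at least 4-fold higher in Rosa without overlap had a median difference of -0.041 in pre-pigment wings and -0.5 in larval discs, against -0.094 and -0.013 for all transcripts. For the 31 lower in Rosa the medians were 0.034 in pre-pigment wings and 0.33 in discs. Neither group thus leaned at the earlier stages the way it did at the ommochrome stages. In the 16-library fit, the ommochrome and larval morph differences differed in 8 of 15682 transcripts (limma adjusted p under 0.05, 0.051% called), 7 with a positive and 1 with a negative difference of ommochrome minus larval. Unadjusted, 1030 transcripts had a p under 0.05 (6.57%), 574 positive (3.66%) and 456 negative (2.91%). In all 7 positive ones the morphs were apart in the discs: Rosa discs held at most 2.12 scaled RPKM and Linea discs at least 4.11, while no ommochrome library of either morph was above 2.05. The log2 values given with an SE for the next 3 transcripts are the ommochrome minus the larval morph difference. JC_0002973 was at 1.72 and 0.346 in Rosa discs, against 88.9 and 88.2 in Linea discs (6.34 ± 0.71 SE, limma adjusted p = 0.022). Its Rosa minus Linea difference was -5.55 in discs and 0.79 at the ommochrome stages. JC_0087009 was at 1.23 and 0 in Rosa discs, against 20.9 and 19.3 in Linea discs (3.91 ± 0.52 SE, limma adjusted p = 0.024). It reached 1 scaled RPKM only in larval libraries, so it was tested only through them. JC_0058877, the negative one, was at 15.5 and 18.9 in Rosa discs and 0.846 and 0.906 in Linea discs (-3.84 ± 0.5 SE, limma adjusted p = 0.024), and all 8 ommochrome libraries held between 9.51 and 34.8 of it. With a pseudocount of 0.1 no positive call remained (limma adjusted p = 0.47 for JC_0002973 and 0.62 for JC_0087009). None remained either when transcripts had to average 5 scaled RPKM. Without any single larval or ommochrome library the ommochrome minus larval contrast of JC_0002973 stayed between 5.83 and 6.84. Whether transcripts passed the threshold did change with single libraries, and so did the count of these calls. Their number was 0 without any of 8 libraries (both Linea larval, all 4 early, and both Linea late ones), 1 without either Rosa late library, 14 without Rosa larva replicate 2 and 108 without Rosa larva replicate 3.

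Between ommochrome and pre-pigment wings the morph difference differed in 0 of 15682 transcripts (limma, 0% called, lowest adjusted p = 0.081). Unadjusted, 839 transcripts had a p under 0.05 (5.35%), 499 positive (3.18%) and 340 negative (2.17%). Without Rosa pre-pigment replicate 2 the count was 112, and it was 1 without Linea pre-pigment replicate 1 or without Rosa early replicate 1. The log2 values given with an SE below are the ommochrome minus the pre-pigment morph difference. JC_0049665 was at 0.691 and 0 scaled RPKM in Rosa pre-pigment wings, against 7.29 and 33 in Linea pre-pigment wings. At early ommochrome the order was turned round, with 11.5 and 8.59 in Rosa and 0.161 and 0 in Linea (5.62 ± 0.79 SE, limma adjusted p = 0.081), and in late wings it was at 16.7 and 24.4 in Rosa and 10.4 and 18.8 in Linea. JC_0111226, higher in Rosa early wings as given above, was at 0.431 and 0 in Rosa and 10.3 and 21 in Linea pre-pigment wings (6.12 ± 0.91 SE, limma adjusted p = 0.081). JC_0098161 was at 8.63 and 11.4 in Rosa pre-pigment wings and below 0.001 in both Linea ones. In early wings it was below 0.001 in both Rosa libraries and at 6.61 and 6.05 in Linea, and no late library held more than 0.263 (-4.97 ± 0.69 SE, limma adjusted p = 0.081). JC_0053163 was at 55 and 28.2 in Rosa pre-pigment wings, against 0.324 and 0 in Linea pre-pigment wings (-7.81 ± 1.24 SE, limma adjusted p = 0.12). Early wings held 11 and 0 in Rosa and 15 and 2.85 in Linea. At late ommochrome it was at 0.137 and 0 in Rosa and at 32.1 and 10.2 in Linea.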

How the data were processed

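The deposited file holds RPKM for 16251 transcripts in 16 libraries, made by the authors. The submitters' processing notes name Bowtie 0.12.7 as a tool; how the transcripts were assembled, counted and filtered is not given. Double-stranded cDNA was made from mRNA with the Ovation kit, per the labels' protocols, then sheared to 300 bp and read as 75 bp or 100 bp paired ends; which library was read how is not stated. The 4 labelled samples without a column were not analysed here. No columns held identical values. Above 0 and under 0.001 RPKM lay 2595 values, as could arise if reads were shared out as fractions, which is not stated. The file holds RPKM and no read counts, so depth is unknown and no count test was run.

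Libraries were scaled by their median ratio to row geometric means, taken from 7126 transcripts that reached 1 RPKM in all 16. Transcripts at 1 scaled RPKM or more in at least 2 libraries of a fit were taken as log2(scaled RPKM + 1) of the deposited values and tested in limma 3.58.1 (R 4.3.3), with a variance trend and Benjamini-Hochberg adjustment over all transcripts tested, at a threshold of 0.05. The central fit had stage and morph terms (8 libraries). Early, late and interaction contrasts used a mean per morph and stage in the same libraries, and contrasts with larval or pre-pigment wings all 16. Scripts were tested on simulated data. The alternatives were other scalings, filters and pseudocounts, all 16 libraries, a replicate block, array weights, a 2-fold minimum and the removal of each library.

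Per comparison, at most 2 transcripts with a positive and 2 with a negative difference were named: the largest past the threshold or, with none past it, those of lowest p, with a mean of 5 scaled RPKM or more in the higher morph and no overlap between morphs. For contrasts between stages, no overlap at either of them was enough, a reading chosen after the data were seen. The comparison, the lists and the rules were chosen with earlier results of these data known.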

Additional observations from a re-analysis of the deposited data

Results flagged for a closer look

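A library stood far from the other 3 of its morph in 4 of 20 groups of 4 ommochrome libraries looked at (3 of them listed at 0 throughout). The usual chance rate of about 1 in 20 groups does not apply directly here. The groups share libraries, and they include transcripts picked for their values. JC_0092108 was at 10.8 scaled RPKM in Linea early replicate 2, against 5.84 to 6.48 in the other Linea libraries. JC_0051542 was at 3.74 scaled RPKM in Linea early replicate 2, the lowest of the Linea libraries. JC_0050344 was at 0.367 scaled RPKM in Rosa late replicate 2 and below 0.001 in the other Rosa libraries. Linea late replicate 2 held 12030 transcripts at 1 RPKM or more, against 12916 to 13065 in the other Linea libraries. Among the 8 libraries it also gave the highest value on principal component 1 (84.6) and the highest share of RPKM in its 10 most abundant transcripts (32.7%). Without it the morph difference in transcripts at 1 RPKM or more was 207 in place of 446, and the central comparison still called 0 transcripts (limma, lowest adjusted p = 0.127). Without Linea early replicate 2 the log2 difference of JC_0092108 was 2.3, against 2.24 with it, and the limma adjusted p of JC_0051542 was 0.12, against 0.1 with it.

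The morph difference differed between ommochrome wings and larval discs, by the limma test of the difference, for JC_0002973 (6.34), JC_0087009 (3.91) and JC_0058877 (-3.84, on the log2 scale). Each of the 3 calls was lost on leaving out any of the 8 libraries whose removal brings the count to 0. With a pseudocount of 0.1 JC_0002973 and JC_0087009 did not pass, while JC_0058877 did (limma adjusted p = 0.024).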

How the results depend on the processing

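In the central comparison the count of 0 transcripts became 6 (all lower in Rosa) with all 16 libraries in the fit and ranged from 0 to 1 with each library left out; it was 0 in all other settings, including one added after seeing the data that left out the 3 libraries high on principal component 1 (lowest adjusted p = 0.529). Early counts became 2 with all 16 libraries and 1 with a pseudocount of 0.1, and late counts 1 with all 16 libraries. With a library left out, the early, late and interaction counts were 0 throughout. The larval contrast gave 17 calls with RPKM as deposited and 3 with the replicate block. It gave 2 with a pseudocount of 0.1 and 1 when transcripts had to average 5 scaled RPKM, all of them negative. Without single libraries the larval contrast gave 0 to 108 calls, and the pre-pigment contrast 0 to 112. The causes were not tested. The difference in the share held by the 10 most abundant transcripts was -6.85 to -2.16 points without single libraries. That in transcripts at 1 RPKM or more was 207 to 633, and reversed to -99.8 at 1 scaled RPKM.

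Deviations of same-numbered libraries from their group means correlated at 0.04 (early) and 0.17 (late), and the main fits did not pair the libraries by number. With 2 libraries per group, both late pairs give the same value. In late wings same-numbered libraries of the morphs had a median absolute log2 difference of 0.58, against 0.69 (Rosa) and 0.75 (Linea) between replicates. In early wings it was 0.54, against 0.6 (Rosa) and 0.51 (Linea). Whether same-numbered libraries share a batch was not tested. With the replicate block the central, early, late and interaction counts were 0. Of 480 values of named transcripts under alternatives, 0 reversed, 33 lost their call and 15 gained one. The named transcripts were picked for clear differences without overlap in these same libraries, so a reversal was unlikely from the start. Unknown depth limits every statement about a transcript listed at 0.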
